A study of Mus musculus with 7 samples.

Results

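The nuclear-encoded subunits of the respiratory chain were followed in CD8 T cells sorted from MCA205 tumours. The members were the rows of the deposited TPM table that carry the protein-coding category and a name of the Nduf (a, b, c, s or v), Sdh, Uqcr, Cox4 to Cox8 or Atp5 families. The names gave 88 rows of 55357. Of these, 82 reached 1 TPM in at least 3 libraries, against 13798 rows of the whole table. They comprised 37 rows of complex I, 4 of complex II, 8 of complex III, 15 of complex IV and 18 of complex V. TPM is a length-corrected abundance in which every library has one common total.

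The cells were sorted as live CD45+ CD8+ cells from MCA205 tumours, a transplantable mouse fibrosarcoma line, 14 days after subcutaneous implantation. The recipients were ENT1KO mice (Slc29a1-/-), which lack the equilibrative nucleoside transporter ENT1, or WT C57Bl/6 mice. There were 4 ENT1KO libraries (replicates 11, 12, 14 and 15) and 3 WT libraries (replicates 1, 2 and 3), made after poly(A) selection. The deletion is in the host and its T cells, and both groups carried the same MCA205 line. The age of the mice, and which segment of Slc29a1 is deleted, are not stated in the labels. Nothing in the labels ties each library to its own mouse. The p-values therefore reflect the spread among these 7 libraries, which may be technical.

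The respiratory chain sits in the inner mitochondrial membrane. Complex I takes electrons from NADH and complex II takes them from succinate. Both pass them through ubiquinone to complex III, and cytochrome c carries them on to complex IV, which reduces oxygen. Complexes I, III and IV pump protons, and complex V, the ATP synthase, uses the resulting gradient to make ATP. Complex II is wholly nuclear-encoded, while the other complexes also hold subunits that are encoded by mitochondrial DNA. Activated T cells draw on the chain for ATP and for the synthesis of aspartate and nucleotides.

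Many promoters of these genes carry letters that match the sites of NRF1, of the ETS factor GABP and of YY1, factors known to drive respiratory genes. In RefSeq promoter windows of GRCm38.p6, from 250 bases before to 50 bases after the annotated start, 67 of 81 members looked up had an entry. The NRF1 letters, GCGCA, any base and then GCGC, occurred on either strand in 25.4% of these 67 members, against 5.19% of all 27025 genes in the table. CCGGAAG, the GABP and ETS letters, occurred in 25.4% of members, against 9.93% of all genes. AAGATGGCG, the YY1 letters, occurred in 10.4% of members, against 1.64% of all genes. For comparison, GGGCGG, the SP1 letters, occurred in 40.3% of members, against 38.2% of all genes. The windows were not matched on base composition, and a match in these letters is a description of the sequence, not a bound site. The 150 bases before the start are shown for 6 members, each 5′ to 3′ on the gene's own strand, with the NRF1 letters and the GABP and ETS letters (CCGGAAG, or CTTCCGG on the other strand) in capitals. All 6 were chosen because these bases hold such letters. Sdha and Sdhd are a catalytic and an anchor subunit of complex II, and Cox6a1 is an abundant member that was not called. Ndufs5, Uqcrh and Atp5h were called in the comparison, while Ndufa12, Ndufb3, Ndufb8, Ndufb11, Ndufc1, Ndufv1, Cox7a1 and Cox7a2l, also called and with an entry, hold none of these letters in the 150 bases.
Sdha (chr13:74350241-74350390, minus strand): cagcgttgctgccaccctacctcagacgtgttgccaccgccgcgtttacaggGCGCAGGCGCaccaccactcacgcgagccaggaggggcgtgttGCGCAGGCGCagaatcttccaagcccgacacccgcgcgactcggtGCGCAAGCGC
Sdhd (chr9:50603850-50603999, minus strand): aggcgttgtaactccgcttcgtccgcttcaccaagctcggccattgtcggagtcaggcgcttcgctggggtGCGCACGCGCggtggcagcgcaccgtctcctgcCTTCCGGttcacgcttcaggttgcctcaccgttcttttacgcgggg
Ndufs5 (chr4:123718187-123718336, minus strand): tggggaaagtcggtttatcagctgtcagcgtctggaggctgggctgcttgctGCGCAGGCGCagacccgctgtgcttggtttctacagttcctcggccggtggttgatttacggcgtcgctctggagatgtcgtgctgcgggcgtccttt
Uqcrh (chr4:116075071-116075220, minus strand): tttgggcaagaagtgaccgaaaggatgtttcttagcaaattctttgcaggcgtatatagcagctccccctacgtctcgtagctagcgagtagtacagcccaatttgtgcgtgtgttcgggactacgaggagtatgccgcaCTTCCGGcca
Cox6a1 (chr5:115348959-115349108, minus strand): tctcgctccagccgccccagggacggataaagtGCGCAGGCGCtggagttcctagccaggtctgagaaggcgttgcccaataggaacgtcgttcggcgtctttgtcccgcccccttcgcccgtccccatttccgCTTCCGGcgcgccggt
Atp5h (chr11:115419920-115420069, minus strand): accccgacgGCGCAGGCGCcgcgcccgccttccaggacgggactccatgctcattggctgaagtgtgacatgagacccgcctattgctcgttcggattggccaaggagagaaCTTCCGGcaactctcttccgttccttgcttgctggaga
These promoter positions are of GRCm38.p6, whereas the gene positions given with the values below are those of the deposited table, in GRCm39.

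Each library held 18624318 to 19660792 reads assigned to genes, as read from the steps of the deposited normalized counts; for WT replicates 1 and 3 the step lies near 1 and does not by itself show that the values are whole reads. Slc29a1, the targeted gene, averaged 14.8 ± 2.0 TPM in ENT1KO libraries (SD, n = 4) and 53.2 ± 4.94 TPM in WT libraries (SD, n = 3), so transcript from the locus remained in the ENT1KO libraries. The libraries also differed in their markers of cell types. All 10 of 10 CD8 T cell markers were higher in ENT1KO libraries, with a summed level of 6705 to 8420 TPM in ENT1KO and 2095 to 5005 TPM in WT. The fibroblast and tumour list fell in 10 of 10 members, summing to 1.17 to 728 TPM in ENT1KO and 3276 to 6273 TPM in WT. The macrophage and monocyte list fell in 10 of 10 members, summing to 108 to 1257 TPM in ENT1KO and 3299 to 4933 TPM in WT. The erythroid markers fell in 4 of 4, summing to 57.4 to 237 TPM in ENT1KO and 694 to 1960 TPM in WT, and the neutrophil markers fell in 4 of 4, summing to 2.63 to 12.8 TPM in ENT1KO and 86.3 to 106 TPM in WT. Of 4 pericyte and endothelial markers that were tested, 3 fell and 1, Pecam1, rose. Apart from mature red cells, which lack mitochondria, these cell types hold a respiratory chain, and the part of these cells in the values below was not tested. In bulk RNA, fewer cells of a type and less RNA per cell cannot be told apart.

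The nuclear-encoded chain took about the same share of the TPM in both genotypes. The 82 members summed to 13140, 14249, 14262 and 13134 TPM in ENT1KO replicates 11, 12, 14 and 15, against 13389, 13800 and 14040 TPM in WT replicates 1, 2 and 3. The groups overlapped, with means of 13696 ± 646 TPM in ENT1KO (SD, n = 4) and 13743 ± 329 TPM in WT (SD, n = 3), a ratio of 0.997. This is 1.37% of all TPM in both genotypes. The mitochondrially encoded subunits took 47329 TPM of the common total in ENT1KO and 109518 TPM in WT. The remaining TPM was therefore larger in ENT1KO, and an equal share of all TPM is a lower share of that remainder. ENT1KO replicates 12 and 14 stood above ENT1KO replicates 11 and 15 in each of the 5 complex sums, and in 41 of the 82 members taken singly. The opposite arrangement held in 4 members. Among the 75 members with a mean of at least 40 TPM, the levels spanned 13.0-fold, and the median coefficient of variation was 8.77% over ENT1KO libraries and 7.41% over WT libraries.

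Gene by gene, 15 members passed the test, 6 higher and 9 lower in ENT1KO. The test was limma-trend on log2(TPM + 1), with p-values adjusted over all 13798 tested genes and a threshold of 0.05. That is 18.3% of the members, whereas 50.6% of all tested genes were called. The members called higher were 7.32% of the 82, against 27.5% of all genes, and those called lower were 11%, against 23.1% of all genes. The members' median log2 difference was -0.05, while all tested genes had a median of 0.145 on this scale. The differences were small, since 79 of 82 members lay within 1.5-fold, as did 58.7% of all tested genes. Only Cox7a1 and the second Atp5o row were called with a difference over 2-fold, as were 20.8% of all tested genes. Relative to the median of all genes, 62 of 82 members were lower. The groups did not overlap for 9 members that were higher and 17 that were lower in ENT1KO, whereas groups did not overlap in 55.2% of all tested genes (30.3% higher and 24.9% lower).

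The balance of rises and falls depended on the scale. On the authors' normalized counts, which are read counts divided by 1 size factor per library, 3 members were called higher and 19 lower by limma-trend, where 48.9% of all tested genes were called (21.0% higher and 28.0% lower). The members' median log2 difference there was -0.19 and that of all genes was 0.00. In the authors' deposited table, 3 members had an adjusted p under 0.05 and a positive fold change and 19 a negative one, where 51.2% of 13290 genes passed (22.2% higher and 29.0% lower). Quantile normalization of the TPM gave 1 higher and 22 lower, where 56% of all tested genes were called. Scaled to the mean of the CD8 T cell markers in each library, 81 members were lower and 1 was higher, with a median of -1.22. All tested genes had a median of -1.03 on that scale, where 67.4% were called (0.181% higher and 67.2% lower). Its p-values are too small, because every gene shares the markers' spread. This scaling subtracts 1 value per library from every gene, so it moves all genes by the same amount and cannot change where the members stand among them, and the calls on it are not particular to the members. The members' median lay 0.19 below that of all genes on TPM and also on normalized counts.

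**Figure D1:**
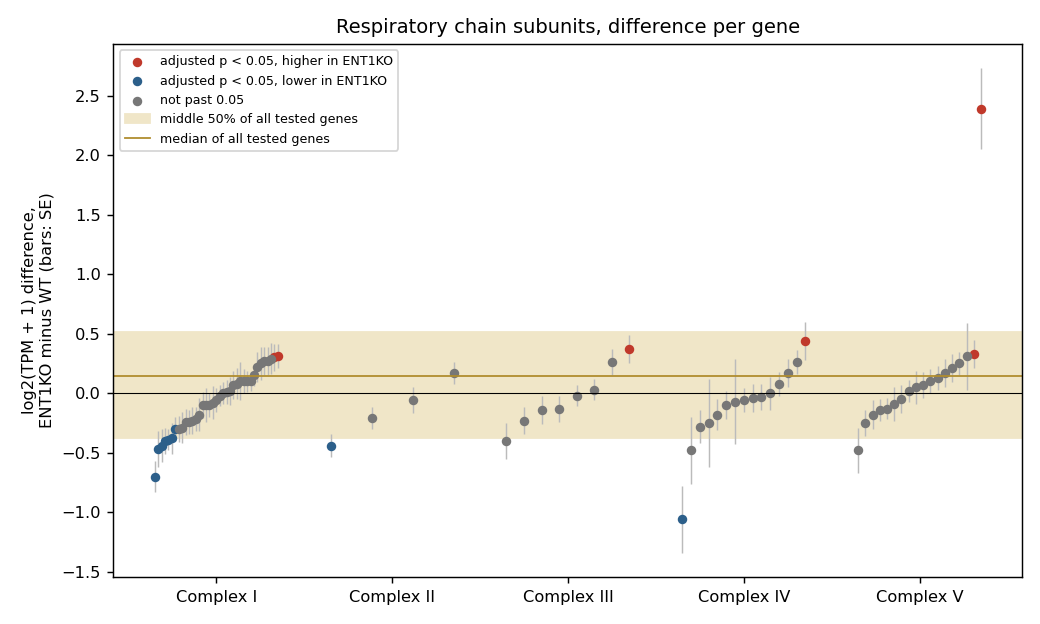
Each point is 1 of the 82 members, placed by its complex and, on the vertical axis, by its difference on log2(TPM + 1), ENT1KO minus WT, with its standard error as a bar. Most points lie within the band that holds the middle of all tested genes and below the line at their median, 0.145. The points that leave the band furthest are the second Atp5o row (2.39) and Cox7a1 (-1.06), both of low abundance, and the scaling to the CD8 T cell markers, which lowers all genes alike, turns the 6 higher members negative except the second Atp5o row.

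Complex I held 7 of the 9 falls. Its 37 members had 2 higher, 7 lower and 28 that did not pass the limma test, with a median log2 difference of -0.06. They summed to 3769 ± 233 TPM in ENT1KO and 3962 ± 130 TPM in WT (SD, n = 4 and 3), with overlapping groups (3510 to 3998 TPM in ENT1KO, 3813 to 4056 TPM in WT). Its peripheral arm oxidises NADH in the N module and reduces ubiquinone in the Q module, and its membrane arm pumps protons. The 7 falls are 18.9% of its members, against 23.1% of all tested genes. In the N module 3 of 10 members fell and none rose, with a median of -0.10, and 30% of 10 members is near the 23.1% of all tested genes. In the Q module 0 of 6 were called, with a median of -0.08. Among the other 20 members, apart from Ndufa4, 2 rose and 4 fell, with a median of 0.04.

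Of the 7 core subunits, which carry out the electron transfer, 1 passed the test (14.3%, against 50.6% of all tested genes). Ndufv1, which binds the FMN that accepts electrons from NADH, had 55.4, 58.6, 67.1 and 66.8 TPM in ENT1KO replicates 11, 12, 14 and 15, against 73.2, 76.3 and 78.7 TPM in WT replicates 1, 2 and 3. All ENT1KO libraries lay below all WT libraries, with a log2 difference of -0.30 ± 0.10 (SE, limma adjusted p = 0.0414). That call was lost in 5 of the 7 fits that left out 1 library (limma adjusted p up to 0.103). Such fits called fewer of all tested genes too, 35.1% to 49.7%, against 50.6% with all libraries. Ndufv2, its iron-sulphur partner, averaged 95.1 ± 7.31 TPM in ENT1KO and 118 ± 12.9 TPM in WT (SD, n = 4 and 3), also without overlap. Ndufv2 missed the threshold on TPM (-0.30 ± 0.11, limma adjusted p = 0.0528) and passed on normalized counts (-0.45, limma adjusted p = 0.0277). Ndufs1, the large iron-sulphur subunit, lay on the other side, with 54.4 ± 2.46 TPM in ENT1KO and 49.0 ± 1.63 TPM in WT (0.15 ± 0.09 on TPM, 0.03 on normalized counts, not called on either). The median over the 7 core subunits was -0.24, with 1 lower and none higher.

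The largest fall in complex I was of Ndufb9, an accessory subunit of the LYR family in the membrane arm (chromosome 15, 58805605 to 58811337). It had 94.4, 110, 120 and 97.3 TPM in ENT1KO replicates 11, 12, 14 and 15, against 154, 194 and 167 TPM in WT replicates 1, 2 and 3. Every ENT1KO library was below every WT library, as in 24.9% of all tested genes, and WT replicate 2 was the highest. The log2 difference was -0.70 ± 0.13 (limma adjusted p = 0.0037), and an exact permutation test (two-sided, 35 arrangements) gave p = 0.0286, the smallest that 4 against 3 allow. The call held in each fit without 1 library (-0.77 to -0.61). The authors' deposited table gave it a log2 fold change of -0.83 and an adjusted p of 0.000295.

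Ndufb8, another accessory subunit of the membrane arm whose protein is widely used as a marker of assembled complex I, fell less (chromosome 19, 44537011 to 44543879). It had 108, 120, 120 and 117 TPM in ENT1KO replicates 11, 12, 14 and 15, and 149, 159 and 149 TPM in WT replicates 1, 2 and 3. The groups stood well apart, with a difference of -0.39 ± 0.09 (limma adjusted p = 0.00906), and no fit without 1 library lost the call. Ndufc1, a small membrane subunit, averaged 81.7 ± 9.07 TPM in ENT1KO and 115 ± 23.8 TPM in WT (-0.47 ± 0.15, limma adjusted p = 0.032), the WT spread resting on replicate 2 at 142 TPM. The Ndufc1 call was lost without WT replicate 2, without ENT1KO replicate 11 and without ENT1KO replicate 15.

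Ndufa12, which sits in the N module at the place that the assembly factor Ndufaf2 holds beforehand, averaged 103 ± 13.7 TPM in ENT1KO and 141 ± 20.6 TPM in WT (-0.44 ± 0.14, limma adjusted p = 0.0315). Ndufaf2, which is not itself a subunit, moved the same way, with 18.4 ± 2.51 TPM in ENT1KO and 31.9 ± 4.24 TPM in WT (-0.77 ± 0.14, limma adjusted p = 0.00381). Ndufs5, an accessory subunit facing the intermembrane space, averaged 80.5 ± 8.71 TPM in ENT1KO and 106 ± 5.68 TPM in WT (-0.40 ± 0.11, limma adjusted p = 0.0184). Ndufa7, of the N module, averaged 119 ± 14.2 TPM in ENT1KO and 155 ± 17.9 TPM in WT (-0.38 ± 0.13, limma adjusted p = 0.0382). None of the 7 complex I members that fell had overlapping groups. Fits without 1 library lost the calls of Ndufa12 (5 of 7), Ndufa7 (6 of 7) and Ndufs5 (2 of 7).

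The 2 complex I members that rose were accessory subunits of the membrane arm. Ndufb11, encoded on the X chromosome (20481565 to 20483858), had 111, 130, 121 and 132 TPM in ENT1KO replicates 11, 12, 14 and 15, against 96.1, 93.7 and 108 TPM in WT replicates 1, 2 and 3. All ENT1KO libraries were above all WT libraries (0.31 ± 0.10, limma adjusted p = 0.0371), but the difference was 0.15 on normalized counts (limma adjusted p = 0.221) and -0.87 relative to the CD8 T cell markers. Ndufb3 averaged 80.2 ± 6.35 TPM in ENT1KO and 64.8 ± 5.56 TPM in WT (0.30 ± 0.11, limma adjusted p = 0.0434), and likewise 0.18 on normalized counts (limma adjusted p = 0.119) and -0.87 relative to the CD8 T cell markers. The most abundant members of complex I were not called. Ndufa4, since reassigned by others to complex IV, averaged 198 ± 32.4 TPM in ENT1KO and 208 ± 13.0 TPM in WT, Ndufa3 averaged 177 ± 13.2 TPM in ENT1KO and 148 ± 20.2 TPM in WT, and Ndufa6 averaged 170 ± 12.8 TPM in ENT1KO and 159 ± 9.97 TPM in WT.

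**Figure D2:**
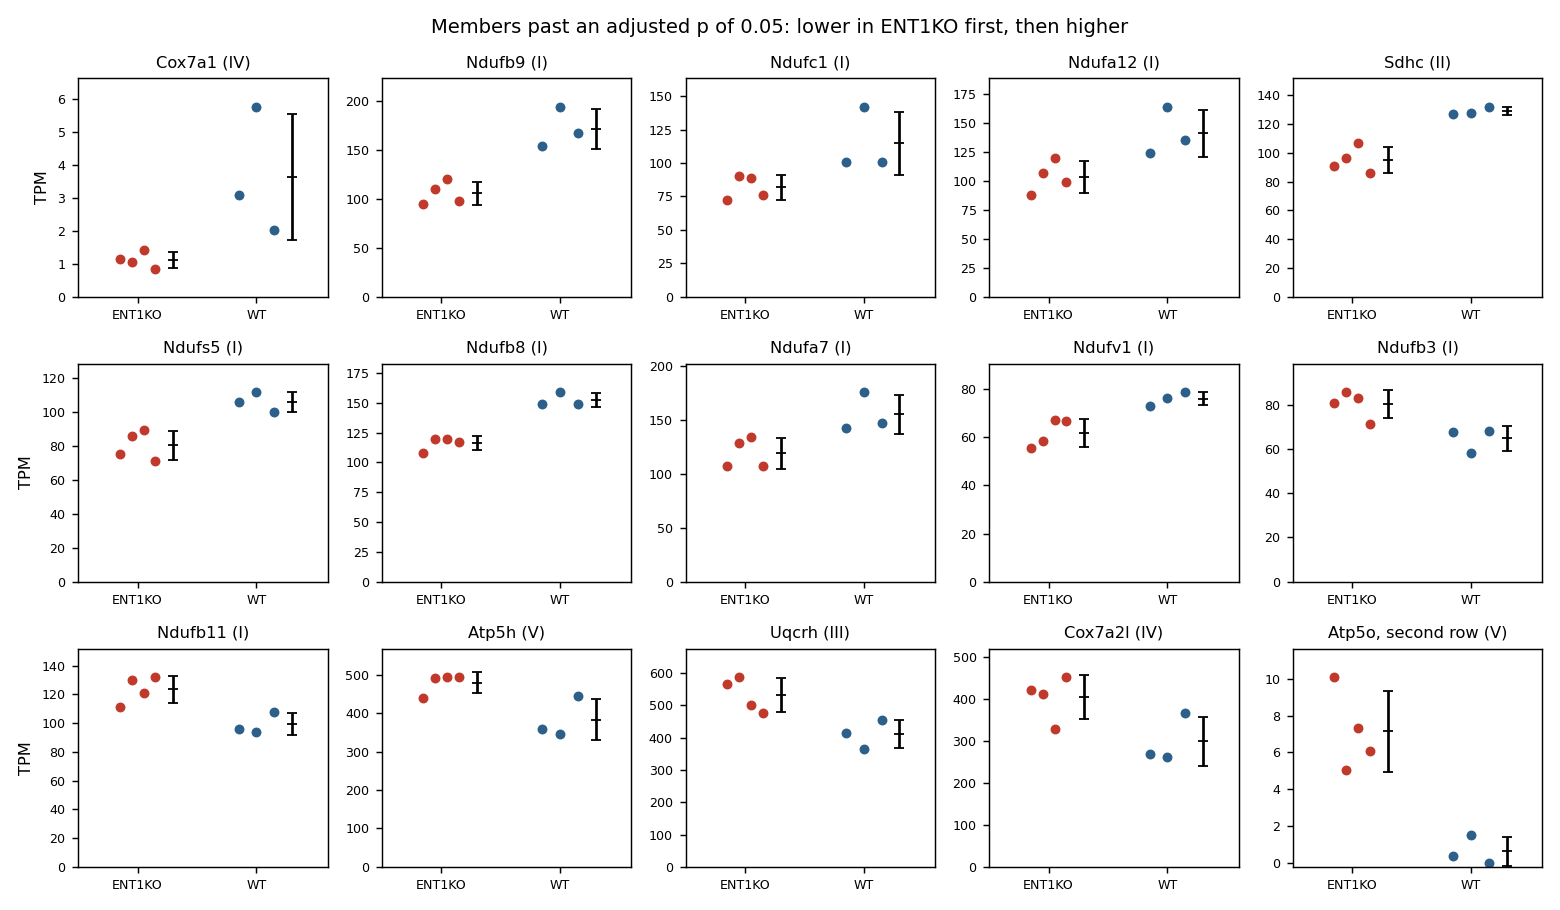
TPM in each library of the 15 members that passed an adjusted p of 0.05 on log2(TPM + 1), ENT1KO (left, 4 points) and WT (right, 3 points), with the mean and SD beside the points and the complex in parentheses. The groups do not overlap in 13 panels, while Cox7a2l and Atp5h overlap through WT replicate 3. The first 9 panels are lower in ENT1KO, and 14 of the 15 are after scaling to the CD8 T cell markers, which lowers all genes alike.

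Complex II was the only complex whose summed level did not overlap between the groups. Its 4 members summed to 371, 397, 415 and 370 TPM in ENT1KO replicates 11, 12, 14 and 15, against 423, 421 and 436 TPM in WT replicates 1, 2 and 3. On average complex II summed to 388 ± 21.8 TPM in ENT1KO and 427 ± 8.29 TPM in WT (SD, n = 4 and 3), a ratio of 0.91. Most of that gap lay in 1 member, Sdhc, which averaged 95.1 ± 8.92 TPM in ENT1KO and 129 ± 2.76 TPM in WT. By the limma test 1 of the 4 members was lower (25%, near the 23.1% of all tested genes) and none was higher. Both membrane anchors were lower without overlap, as were 24.9% of all tested genes. Sdhc (chromosome 1, 170954734 to 170978172), an anchor that helps to bind haem and ubiquinone, had 91.1, 96.7, 107 and 85.8 TPM in ENT1KO replicates 11, 12, 14 and 15, against 127, 128 and 132 TPM in WT replicates 1, 2 and 3. The difference was -0.44 ± 0.10 (limma adjusted p = 0.00866), and the call held in each fit without 1 library. The exact two-sided permutation p was 0.0286, the smallest possible.

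Sdhd, the partner anchor, averaged 76.4 ± 3.31 TPM in ENT1KO and 88.5 ± 4.44 TPM in WT and did not overlap, with a difference of -0.21 ± 0.09 that missed the threshold on TPM (limma adjusted p = 0.0788) and passed on normalized counts (-0.36, limma adjusted p = 0.0209). The catalytic subunits did not follow. Sdha, the flavoprotein that oxidises succinate, averaged 112 ± 3.43 TPM in ENT1KO and 100 ± 8.08 TPM in WT (0.17 ± 0.09 on TPM, limma adjusted p = 0.167, but -0.01 on normalized counts). On TPM the Sdha groups did not overlap either, with ENT1KO higher, as in 30.3% of all tested genes. Sdhb, the iron-sulphur subunit, averaged 105 ± 8.83 TPM in ENT1KO and 109 ± 9.0 TPM in WT (-0.06 ± 0.11, limma adjusted p = 0.677). The difference between Sdhc and Sdha themselves was not tested.

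Complex III had 1 member higher, none lower and 7 not called, with a median of -0.07. That is 12.5% higher and 0% lower, against 27.5% and 23.1% of all tested genes, whose median was 0.145. Its members summed to 1453 ± 71.8 TPM in ENT1KO and 1395 ± 25.3 TPM in WT (SD, n = 4 and 3), with overlapping groups. Uqcrh, the acidic hinge protein that helps cytochrome c to dock, was its most abundant member (chromosome 4, 115924162 to 115932268). It had 567, 587, 501 and 475 TPM in ENT1KO replicates 11, 12, 14 and 15, against 413, 366 and 455 TPM in WT replicates 1, 2 and 3. The groups did not overlap, though ENT1KO replicate 15 and WT replicate 3 were close. The difference was 0.37 ± 0.12 (limma adjusted p = 0.0326), 0.23 on normalized counts (limma adjusted p = 0.0886) and -0.81 relative to the CD8 T cell markers, and 4 of 7 fits without 1 library lost the call.

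Other members of complex III lay on both sides. Uqcrc2, a core protein, averaged 115 ± 5.17 TPM in ENT1KO and 96.9 ± 12.2 TPM in WT (0.26 ± 0.11, limma adjusted p = 0.0788), and its partner Uqcrc1 averaged 105 ± 9.23 TPM in ENT1KO and 115 ± 9.75 TPM in WT (-0.13 ± 0.11, limma adjusted p = 0.359). Uqcrfs1, the Rieske iron-sulphur protein, was nearly level, with 92.8 ± 3.37 TPM in ENT1KO and 94.2 ± 4.53 TPM in WT. Uqcr11, the smallest subunit, averaged 86.3 ± 13.0 TPM in ENT1KO and 114 ± 16.4 TPM in WT and stood at the threshold itself (-0.40 ± 0.15, limma adjusted p = 0.05, not under it). With its near-identical copies summed its limma adjusted p was 0.0494. Cyc1, the cytochrome c1 subunit that the naming rule leaves out, averaged 94.2 ± 9.57 TPM in ENT1KO and 129 ± 15.1 TPM in WT, without overlap (-0.45 ± 0.12, limma adjusted p = 0.0169).

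**Figure D3:**
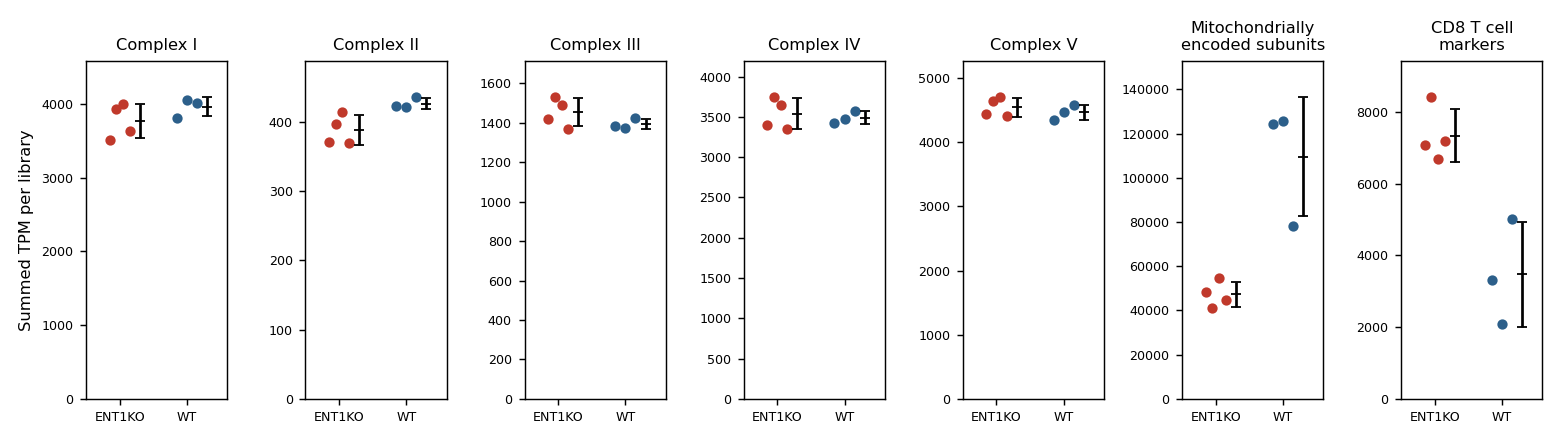
Summed TPM per library of the members of complexes I to V, of the 13 mitochondrially encoded subunits and of the 10 CD8 T cell markers, ENT1KO (left, 4 points) and WT (right, 3 points), with mean and SD. The sums of complexes I, III, IV and V overlap between genotypes, that of complex II runs from 370 to 415 TPM in ENT1KO and from 421 to 436 TPM in WT, and the last 2 panels separate in opposite directions.

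Complex IV had 1 member higher, 1 lower and 13 not called, with a median of -0.06 and sums of 3537 ± 191 TPM in ENT1KO and 3490 ± 79.1 TPM in WT (SD, n = 4 and 3). That is 6.67% higher and 6.67% lower, against 27.5% and 23.1% of all tested genes. Several of its subunits come as a ubiquitous and a tissue-specific isoform, and the ubiquitous ones carried nearly all of the transcript. Cox4i1 averaged 444 ± 29.2 TPM in ENT1KO and 465 ± 31.2 TPM in WT. Cox4i2, the isoform associated with lung and low oxygen, reached 1 TPM in 2 libraries and did not pass the filter, with 0.11, 0.10, 0.31 and 0.00 TPM in ENT1KO replicates 11, 12, 14 and 15 and 1.1, 1.35 and 0.39 TPM in WT replicates 1, 2 and 3. Cox6a1 averaged 225 ± 19.7 TPM in ENT1KO and 242 ± 29.9 TPM in WT, and Cox6a2, the heart and muscle isoform, averaged 1.62 ± 0.992 TPM in ENT1KO and 2.52 ± 0.49 TPM in WT. Cox6b1 averaged 393 ± 24.5 TPM in ENT1KO and 372 ± 29.7 TPM in WT, and Cox6b2, the testis isoform, averaged 1.48 ± 1.16 TPM in ENT1KO and 1.40 ± 0.287 TPM in WT. Cox8a averaged 339 ± 24.4 TPM in ENT1KO and 302 ± 42.9 TPM in WT, while Cox8b and Cox8c, and also Cox7b2, were listed at 0 in all 7 libraries.

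Of the complex IV members that passed the filter, Cox7a1 had the largest fall. Cox7a1, the heart and muscle isoform (chromosome 7, 29883569 to 29885503), had 1.14, 1.06, 1.41 and 0.85 TPM in ENT1KO replicates 11, 12, 14 and 15, against 3.10, 5.77 and 2.03 TPM in WT replicates 1, 2 and 3. All ENT1KO libraries were below all WT libraries at a very low level (-1.06 ± 0.28, limma adjusted p = 0.0146). The summed fibroblast and tumour markers, 1.17 to 728 TPM in ENT1KO and 3276 to 6273 TPM in WT, moved with it, and their part in the result was not tested. Cox7a2, the ubiquitous isoform, averaged 189 ± 28.5 TPM in ENT1KO and 212 ± 2.54 TPM in WT (-0.18 ± 0.13, limma adjusted p = 0.266).

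Cox7a2l, a related protein described as a factor of supercomplexes, lies on chromosome 17 (83809347 to 83824759). Which form of the protein these mice carry, and supercomplexes themselves, were not examined. Cox7a2l had 423, 413, 330 and 453 TPM in ENT1KO replicates 11, 12, 14 and 15, against 269, 262 and 368 TPM in WT replicates 1, 2 and 3. ENT1KO replicate 14 lay within the WT range, below WT replicate 3. The difference was 0.44 ± 0.16 and just under the threshold (limma adjusted p = 0.0492), and it was 0.28 on normalized counts (limma adjusted p = 0.213) and -0.74 relative to the CD8 T cell markers. The exact two-sided permutation p was 0.0857. Cox5b, which was chosen for mention after its values were seen, averaged 209 ± 11 TPM in ENT1KO and 175 ± 10.8 TPM in WT without overlap and missed the threshold (0.26 ± 0.10, limma adjusted p = 0.0517).

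Complex V had 2 rows higher, none lower and 16 not called, with a median of 0.06, and summed to 4548 ± 149 TPM in ENT1KO and 4469 ± 121 TPM in WT (SD, n = 4 and 3). That is 11.1% higher and 0% lower, against 27.5% and 23.1% of all tested genes. The catalytic head of complex V was level. Atp5a1, the alpha subunit, averaged 338 ± 14.8 TPM in ENT1KO and 335 ± 22.4 TPM in WT. Atp5b, the catalytic beta subunit and the most abundant member of all, averaged 554 ± 58.8 TPM in ENT1KO and 628 ± 51.1 TPM in WT (-0.18 ± 0.12, limma adjusted p = 0.212), and was -0.39 on normalized counts (limma adjusted p = 0.0429). Of the 5 subunits of the head, 0 were called by limma on TPM and 1, Atp5b, on normalized counts. Of all tested genes, 50.6% were called on TPM and 48.9% on normalized counts.

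In the peripheral stalk, Atp5h (chromosome 11, 115306515 to 115310788), the d subunit, had 440, 491, 494 and 494 TPM in ENT1KO replicates 11, 12, 14 and 15, against 359, 346 and 445 TPM in WT replicates 1, 2 and 3. ENT1KO replicate 11 lay below WT replicate 3. The difference was 0.33 ± 0.12 (limma adjusted p = 0.0442), 0.28 on normalized counts (limma adjusted p = 0.036) and -0.85 relative to the CD8 T cell markers, and 6 of 7 fits without 1 library lost the call. The other called row was a second row named Atp5o, whose interval runs from 91481286 to 91723870 on chromosome 16 and partly overlaps the first Atp5o row (91722102 to 91728575). It had 10.1, 5.06, 7.33 and 6.06 TPM in ENT1KO replicates 11, 12, 14 and 15, against 0.37, 1.53 and 0 TPM in WT replicates 1, 2 and 3 (2.39 ± 0.34, limma adjusted p = 0.00174). Its normalized counts were 0 in all libraries, and its coding sequence in GENCODE M21 matches that of Donson, a replication gene that averaged 42.4 ± 4.77 TPM in ENT1KO and 25.3 ± 4.66 TPM in WT, so the row is uncertain as a measure of Atp5o. The first Atp5o row, which holds the OSCP subunit, averaged 185 ± 16.3 TPM in ENT1KO and 221 ± 18.6 TPM in WT (-0.25 ± 0.11, limma adjusted p = 0.0915).

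The c ring is encoded by 3 genes that give the same mature protein. Atp5g3 was the most abundant, with 306 ± 15.2 TPM in ENT1KO and 338 ± 14.4 TPM in WT (-0.14 ± 0.09, limma adjusted p = 0.221). Atp5g1 averaged 79.9 ± 16.8 TPM in ENT1KO and 112 ± 22.3 TPM in WT (-0.48 ± 0.19, limma adjusted p = 0.0693), and Atp5g2 averaged 11.4 ± 1.37 TPM in ENT1KO and 9.60 ± 4.14 TPM in WT. Together they summed to 397 ± 29.0 TPM in ENT1KO and 459 ± 36.8 TPM in WT, with overlapping groups (371 to 437 TPM in ENT1KO, 420 to 493 TPM in WT). This sum is uncertain in size, because it leaves out Gm10175, a near-identical copy of Atp5g2. Gm10175 was listed at 280 ± 15.6 TPM in ENT1KO and 306 ± 26.1 TPM in WT. Atpif1, the inhibitor of the synthase, lies outside the naming rule through its spelling and was chosen after its values were seen. It had 85.9, 102, 105 and 96.7 TPM in ENT1KO replicates 11, 12, 14 and 15, against 141, 177 and 153 TPM in WT replicates 1, 2 and 3, without overlap (-0.68 ± 0.12, limma adjusted p = 0.00301).

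Near-identical copies limit some of these values. A copy was counted where the coding sequence of a member matched another annotated transcript at 95% identity or more over at least 100 bases and 50% of its length, and 26 of the 88 rows had at least 1. Among the 25 of these that passed the filter, 5 were called higher and 2 lower, and of the 57 members without a copy 1 was called higher and 7 lower, where 27.5% of all tested genes were higher and 23.1% lower. The difference between these groups was not tested, and with copies summed 6 members were called higher and 11 lower. Most copies were listed at a few TPM or less, and 4 members had copies at high levels, chosen for mention after their values were seen. Ndufb4 averaged 12.1 ± 0.19 TPM in ENT1KO and 10.1 ± 2.01 TPM in WT, while its processed copy Ndufb4c averaged 112 ± 10.6 TPM in ENT1KO and 121 ± 10.7 TPM in WT and had 0 normalized counts throughout. Atp5g2 stood beside Gm10175, at 280 ± 15.6 TPM in ENT1KO and 306 ± 26.1 TPM in WT. With copies summed, the difference turned to -0.08 for Ndufb4 (0.25 alone) and to -0.11 for Atp5g2 (0.31 alone), and none of these was called.

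Cox7c and Atp5l departed from the other members when the scales were compared. Cox7c averaged 304 ± 42.9 TPM in ENT1KO and 301 ± 21.2 TPM in WT (0.00 ± 0.14, limma adjusted p = 0.984), and its copy Gm12338 averaged 323 ± 36.5 TPM in ENT1KO and 277 ± 28.3 TPM in WT. On normalized counts Cox7c was higher in ENT1KO (0.55, limma adjusted p = 0.0181), and the authors' deposited table gave a log2 fold change of 0.54 with an adjusted p of 0.00709. Atp5l averaged 347 ± 45.7 TPM in ENT1KO and 307 ± 15.4 TPM in WT (0.17 ± 0.12, limma adjusted p = 0.278), and was 0.49 on normalized counts (limma adjusted p = 0.0478). The authors' deposited table gave Atp5l a log2 fold change of 0.50 with an adjusted p of 0.0372. Gm12338 had at most 3.98 normalized counts in any library. Of the other members, 16 were positive on TPM and negative on normalized counts.

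**Figure D4:**
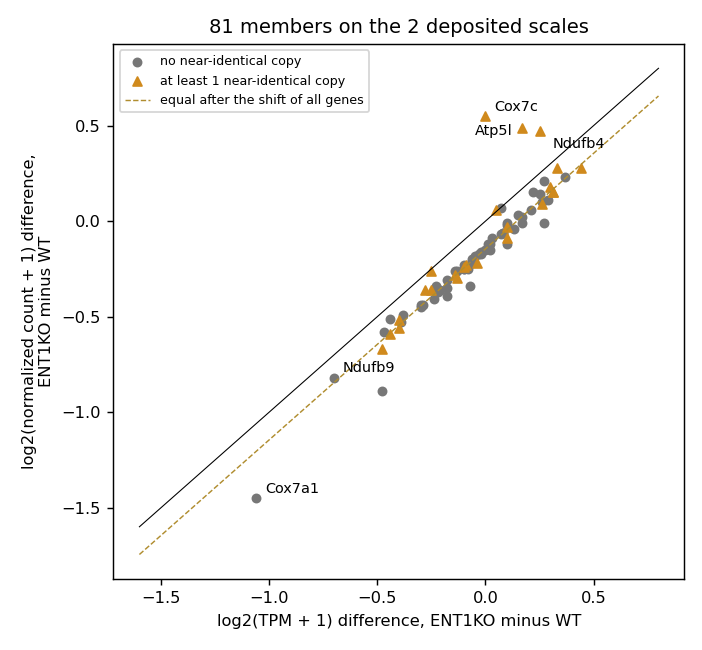
Difference of each member on log2(normalized count + 1) against that on log2(TPM + 1), both ENT1KO minus WT, for the 81 members other than the second Atp5o row, with triangles for members that have a near-identical copy. Most points follow the dashed line, which lies 0.145 below equality and stands for the shift of all genes between the scales, and Cox7c, Atp5l and Ndufb4 lie above both lines.

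**Figure D5:**
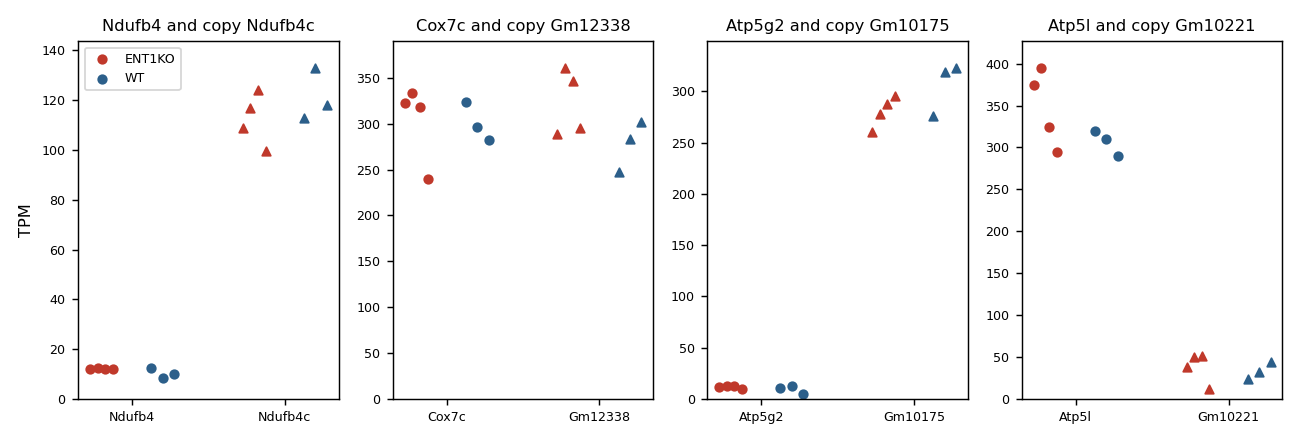
TPM in each library of 4 members (circles) and of the most abundant near-identical copy of each (triangles), ENT1KO (red, left) and WT (blue, right). Ndufb4 and Atp5g2 are near 10 TPM while their copies lie near or above 100 TPM, and Cox7c and Gm12338 are at like levels.

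Beyond the ubiquitous subunits, Ndufa4l2, the paralogue of Ndufa4 that hypoxia induces, did not pass the filter. It had 0, 0, 0.43 and 0 TPM in ENT1KO replicates 11, 12, 14 and 15, against 0.94, 1.81 and 0.81 TPM in WT replicates 1, 2 and 3. With Cox4i2, Cox7b2, Cox8b, Cox8c and Ndufb11b, it made up the 6 rows of the 88 that were not tested. Just inside the filter were Cox6b2, Cox5b-ps and the second Atp5o row, each with at least 1 TPM in 5 libraries.

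The 13 subunits encoded by mitochondrial DNA parted from their nuclear-encoded partners. They summed to 48540, 41204, 54673 and 44899 TPM in ENT1KO replicates 11, 12, 14 and 15, against 124400, 125814 and 78339 TPM in WT replicates 1, 2 and 3. This averaged 47329 ± 5739 TPM in ENT1KO and 109518 ± 27011 TPM in WT (SD, n = 4 and 3), a ratio of 0.432, with no overlap. The ratio of mitochondrially encoded to nuclear-encoded transcript was 3.46 ± 0.416 in ENT1KO and 8.0 ± 2.09 in WT. The largest single part of both sums was mt-Atp8, with 18453 ± 1831 TPM in ENT1KO and 50912 ± 14081 TPM in WT. This row had 0 normalized counts in all libraries, so the sums and the ratio are uncertain in size. By gene, 11 of 13 fell (84.6%, against 23.1% of all tested genes) and none rose on TPM, with a median of -1.03, among them mt-Nd1 of complex I (4125 ± 549 TPM in ENT1KO, 8670 ± 1529 TPM in WT), mt-Cytb of complex III (4253 ± 951 TPM in ENT1KO, 8664 ± 1599 TPM in WT) and mt-Co1 of complex IV (12087 ± 1531 TPM in ENT1KO, 25904 ± 6132 TPM in WT). On normalized counts 7 fell and 5 (mt-Co2, mt-Atp8, mt-Atp6, mt-Co3 and mt-Nd4l) had 0 counts in all libraries. The remaining gene, mt-Nd3, was called higher there on 1.02 to 2.95 normalized counts in ENT1KO against 0 in every WT library. That call rests on very few counts, and the TPM of mt-Nd3 overlapped between the groups (-0.76 ± 1.61). Among the 13 genes, mt-Atp8 and mt-Atp6 overlap in the genome, so their split in TPM is uncertain. WT replicate 3, with the lowest mitochondrially encoded sum of the WT libraries, also had the highest CD8 T cell marker sum of them (5005 TPM).

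Because the nuclear-encoded sums were about equal, their ratio to the CD8 T cell markers restates the marker sums. Divided by the CD8 T cell marker sum it was 1.88 ± 0.182 in ENT1KO and 4.47 ± 1.93 in WT, ranging from 1.69 to 2.13 in ENT1KO and from 2.81 to 6.59 in WT. The marker sum itself averaged 7347 ± 744 TPM in ENT1KO and 3476 ± 1461 TPM in WT.

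Assembly factors, which build the complexes without staying in them, had 11 higher and 5 lower of 55 tested, with a median of 0.19 on TPM. These are 20% and 9.09% of the list, against 27.5% and 23.1% of all tested genes, whose median was 0.145. On normalized counts they had 6 higher and 9 lower of the 55, with a median of 0.00. On that scale 21.0% of all tested genes were higher and 28.0% lower, with a median of 0.00. For complex I, Dmac2 averaged 42.2 ± 4.13 TPM in ENT1KO and 24.1 ± 4.52 TPM in WT (0.80 ± 0.15, limma adjusted p = 0.00378), and Ndufaf2 fell, as given above. For complex III, Uqcc2, which aids the synthesis of cytochrome b, had 57.3, 68.0, 81.2 and 58.6 TPM in ENT1KO replicates 11, 12, 14 and 15, against 117, 171 and 132 TPM in WT replicates 1, 2 and 3 (-1.06 ± 0.17, limma adjusted p = 0.00233). Uqcc3, of the same pathway, lay the other way, with 37.6 ± 3.33 TPM in ENT1KO and 24.4 ± 4.57 TPM in WT (0.62 ± 0.14, limma adjusted p = 0.00788, and 0.47 on normalized counts).

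For complex IV, 5 of 23 factors were higher (21.7%, against 27.5% of all tested genes) and 1 was lower. Cmc1 averaged 50.9 ± 2.96 TPM in ENT1KO and 35.3 ± 2.88 TPM in WT (0.52 ± 0.10, limma adjusted p = 0.00415), and Cox20, a chaperone of the Co2 subunit, averaged 99.6 ± 8.01 TPM in ENT1KO and 61.9 ± 13.7 TPM in WT (0.70 ± 0.16, limma adjusted p = 0.00864). Cox19, of the copper pathway, averaged 18.6 ± 0.951 TPM in ENT1KO and 28.4 ± 1.71 TPM in WT (-0.58 ± 0.10, limma adjusted p = 0.00283). For complex V, Tmem70, which aids the c ring, averaged 18.2 ± 2.62 TPM in ENT1KO and 24.9 ± 2.33 TPM in WT (-0.44 ± 0.13, limma adjusted p = 0.0251), and Tmem242 averaged 42.6 ± 2.66 TPM in ENT1KO and 57.0 ± 3.02 TPM in WT (-0.41 ± 0.09, limma adjusted p = 0.00829). The 4 factors of complex II tested were not called.

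Of 17 tested electron carriers, ubiquinone synthesis genes and subunits outside the naming rule, 1 was higher and 3 were lower on TPM (5.88% and 17.6%, against 27.5% and 23.1% of all tested genes). Besides Cyc1, Coq7, a hydroxylase of ubiquinone synthesis, fell to 8.64 ± 1.2 TPM in ENT1KO, against 13.0 ± 1.47 TPM in WT (-0.54 ± 0.15, limma adjusted p = 0.0166). Cycs, cytochrome c itself, averaged 20.1 ± 1.26 TPM in ENT1KO and 19.0 ± 3.22 TPM in WT. Of 17 TCA cycle genes, which feed the chain, 1 was higher and 4 were lower, with a median of -0.01. The 4 are 23.5% of the list, near the 23.1% of all tested genes called lower on TPM. On normalized counts 7 of the 17 were lower by limma and none higher, with a median of -0.19. On that scale 28.0% of all tested genes were lower, with a median of 0.00. Idh2, the mitochondrial NADP-dependent isocitrate dehydrogenase, had 18.3, 10.9, 23.8 and 21.1 TPM in ENT1KO replicates 11, 12, 14 and 15, against 47.4, 70.8 and 42.3 TPM in WT replicates 1, 2 and 3 (-1.50 ± 0.27, limma adjusted p = 0.00381).

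Regulators of mitochondrial biogenesis had 8 of 17 tested genes higher and none lower on TPM, with a median of 0.38. That is 47.1% higher, against 27.5% of all tested genes and their median of 0.145. On normalized counts 6 were higher and none lower, with a median of 0.20, where 21.0% of all tested genes were higher and their median was 0.00. Creb1 averaged 41.6 ± 2.46 TPM in ENT1KO and 24.3 ± 3.90 TPM in WT (0.77 ± 0.13, limma adjusted p = 0.00258), and Polg2, the accessory subunit of the mitochondrial DNA polymerase, averaged 19.9 ± 2.38 TPM in ENT1KO and 10.5 ± 2.41 TPM in WT (0.88 ± 0.17, limma adjusted p = 0.00459). Nrf1, whose letters occurred in 25.4% of the 67 members with a promoter entry, averaged 33.5 ± 0.709 TPM in ENT1KO and 27.5 ± 1.91 TPM in WT. Its difference was 0.28 ± 0.09 on TPM (limma adjusted p = 0.0341), but 0.20 on normalized counts (limma adjusted p = 0.0699). A link between Nrf1 and the members was not tested. Gabpa, the DNA-binding part of GABP, averaged 39.5 ± 1.27 TPM in ENT1KO and 31.2 ± 3.74 TPM in WT (0.34 ± 0.10, limma adjusted p = 0.0273, and 0.15 with a limma adjusted p of 0.22 on normalized counts). Tfam, the packaging factor of mitochondrial DNA, averaged 60.5 ± 2.88 TPM in ENT1KO and 46.5 ± 8.51 TPM in WT (0.39 ± 0.13, limma adjusted p = 0.0387, and 0.20 with a limma adjusted p of 0.143 on normalized counts). Ppargc1b was at 4.32 ± 1.1 TPM in ENT1KO and 1.64 ± 0.32 TPM in WT, and Ppargc1a, at 0.0475 ± 0.0377 TPM in ENT1KO and 0.0667 ± 0.0551 TPM in WT, was not tested.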

How the data were processed

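The authors deposited TPM for 55357 genes and a comparison table. In the comparison table, the deposited sample columns are a signal: read counts per gene, scaled by 1 size factor per library (normalized counts). Beside them stand the authors' log2 fold changes and standard errors, the authors' test statistic, a score, and the p-values and adjusted p-values deposited with them. Tools named without a role in the submitters' processing notes are STAR 2.7.1a, RSEM, Trimmomatic (0.35 and 0.38), DESeq and DESeq2 1.30.1, with the build GRCm39. No source used here names the counter, the annotation release or the read filters. The TPM columns sum to one total and keep no depth. Depth was read from the step of each normalized count column, and no count intervals were computed. No count test was run on the columns, because for WT replicates 1 and 3 the step is too near 1 to show whole reads.

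Genes that reached 1 TPM in 3 or more libraries were tested with limma-trend (limma 3.58.1, R 4.3.3, robust empirical Bayes) on log2(TPM + 1) with a genotype term alone, and p-values were adjusted by Benjamini-Hochberg over the 13798 genes. The pseudocount of 1 understates the change of low genes. Single members were also compared by an exact permutation test, two-sided, with 35 arrangements of the libraries. The scripts were tested on simulated data. Copies were sought in GENCODE M21 with BLAST 2.17.0. Plots were made in Python 3.11.15 with matplotlib 3.10.9. The members, gene lists and tests were chosen with earlier results of these data known, and lists are described by counts and medians only.

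Named with values were, per complex, the 3 most abundant members and up to 2 called rises and 2 called falls of largest difference, core and catalytic members, isoform groups, members near the level filter, and the 2 genes of smallest p of each other list. The remaining named genes (other called members, members near the threshold, members with copies) were chosen after their values were seen. Alternatives were pseudocounts of 0.1 and 5, filters of above 0 and of 5 TPM, quantile normalization, normalized counts, array weights, protein-coding genes only, scaling to the CD8 T cell markers, leaving out each library and, added after seeing the data, summing near-identical copies. Some genes that the naming rule takes are not reported here, although the counts and sums include them.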

Additional observations from a re-analysis of the deposited data

Results flagged for a closer look

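In 5 of 65 groups of 4 ENT1KO libraries examined (59 named members and 6 sums), 1 library stood apart from the other 3 by Dixon's criterion at 95%, and chance alone flags about 1 in 20 groups. Replicate 11 was the low library for Atp5h (439.9 TPM), Cox5b (192.7 TPM) and Uqcrc2 (107.8 TPM). Replicate 14 was the high library for Sdha (117.3 TPM), and replicate 15 was the low library for Cox7c (240.2 TPM). Without ENT1KO replicate 11 the Atp5h difference was no longer past the limma threshold, as in 5 other fits that left out 1 library.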

How the results depend on the processing

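No paired analysis was possible because the ENT1KO and WT libraries share no replicate number. Depth was about equal between libraries, and low members (Cox6a2, Cox6b2, Cox7a1, Cox5b-ps) rest on few reads. The balance of rises and falls differed between scales, while the median of the members minus that of all genes was negative under each of the 17 alternatives, from -0.33 (quantile normalization) to -0.06 (genes above 0 TPM in 1 library); the CD8 T cell marker scaling, 1 of them, cannot change this difference. Of the 15 called members, 5 (Ndufb8, Ndufb9, Sdhc, Cox7a1 and the second Atp5o row) kept their call in each of the 7 fits without 1 library. The share of all tested genes called also differed between settings, from 50.6% in the main fit. It was 26% for genes above 0 TPM in 1 library, 54.2% with array weights and 56% after quantile normalization. With a filter of 5 TPM in 3 libraries it was 53.2%, and with protein-coding genes only 55%. Both the pseudocount of 5 and the summing of copies gave 50.7%. In the fits without 1 library it ran from 35.1% to 49.7%. The cause of the changes below was not tested. With array weights, libraries weighed from 0.458 (WT replicate 2) to 2.506 (WT replicate 1).

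When genes above 0 TPM in at least 1 library were tested, members higher numbered 1 in all, 0 in complex I, 0 in complex III, 0 in complex IV, 1 in complex V and members lower numbered 5 in all, 3 in complex I. With a filter of 5 TPM in 3 libraries, members higher numbered 2 in complex IV and members lower numbered 1 in complex III, 0 in complex IV. With array weights, members higher numbered 11 in all, 4 in complex I, 2 in complex III, 2 in complex IV and members lower numbered 2 in complex II, 1 in complex III, 3 in complex IV. With near-identical copies summed, members lower numbered 1 in complex III, 1 in complex V. On normalized counts, members higher numbered 3 in all, 0 in complex I, 0 in complex III and members lower numbered 19 in all, 11 in complex I, 2 in complex II, 2 in complex III, 3 in complex V and the median log2 difference was -0.19 in all, -0.20 in complex I, -0.28 in complex II, -0.21 in complex III, -0.22 in complex IV, -0.05 in complex V. After quantile normalization, members higher numbered 1 in all, 0 in complex I, 0 in complex III, 0 in complex IV, 1 in complex V and members lower numbered 22 in all, 13 in complex I, 2 in complex II, 2 in complex III, 4 in complex V and the median log2 difference was -0.16 in all, -0.18 in complex I, -0.29 in complex II, -0.22 in complex III, -0.07 in complex V. Relative to the CD8 T cell markers, members higher numbered 1 in all, 0 in complex I, 0 in complex III, 0 in complex IV, 1 in complex V and members lower numbered 81 in all, 37 in complex I, 4 in complex II, 8 in complex III, 15 in complex IV, 17 in complex V and the median log2 difference was -1.22 in all, -1.24 in complex I, -1.31 in complex II, -1.25 in complex III, -1.24 in complex IV, -1.12 in complex V. With protein-coding genes only, members lower numbered 1 in complex III. With a pseudocount of 5, members lower numbered 1 in complex III.

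With array weights, the sign turned for Cox4i1 (0.01), Cox5b-ps (0.12), Cox7c (-0.02), Ndufb5 (-0.02), Sdhb (0.02), Uqcr10 (-0.02). With near-identical copies summed, the sign turned for Atp5g2 (-0.11), Ndufb4 (-0.08). On normalized counts, the sign turned for Atp5a1 (-0.15), Atp5c1 (-0.03), Atp5d (-0.07), Atp5j (-0.04), Cox6b1 (-0.06), Ndufa10 (-0.01), Ndufa13 (-0.06), Ndufa6 (-0.02), Ndufb1 (-0.01), Ndufb10 (-0.15), Ndufb5 (-0.12), Ndufs3 (-0.09), Ndufs7 (-0.12), Ndufv3 (-0.12), Sdha (-0.01), Uqcr10 (-0.09). After quantile normalization, the sign turned for Atp5a1 (-0.11), Atp5c1 (-0.01), Atp5d (-0.05), Cox5b-ps (0.14), Cox6b1 (-0.04), Cox6b2 (0.34), Cox7c (-0.11), Ndufa13 (-0.08), Ndufa6 (-0.04), Ndufb1 (-0.06), Ndufb10 (-0.14), Ndufb5 (-0.13), Ndufs3 (-0.05), Ndufs7 (-0.12), Ndufv3 (-0.04), Uqcr10 (-0.11). Relative to the CD8 T cell markers, where all genes shift together (median of all tested genes -1.03), the sign turned for Atp5a1 (-1.16), Atp5c1 (-1.07), Atp5d (-1.11), Atp5g2 (-0.86), Atp5h (-0.85), Atp5j (-1.05), Atp5l (-1.01), Cox5b (-0.92), Cox6b1 (-1.10), Cox7a2l (-0.74), Cox7c (-1.17), Cox8a (-1.0), Ndufa10 (-0.91), Ndufa13 (-1.10), Ndufa3 (-0.91), Ndufa6 (-1.08), Ndufb1 (-1.08), Ndufb10 (-1.17), Ndufb11 (-0.87), Ndufb3 (-0.87), Ndufb4 (-0.93), Ndufb5 (-1.17), Ndufs1 (-1.03), Ndufs3 (-1.08), Ndufs7 (-1.16), Ndufv3 (-1.08), Sdha (-1.01), Uqcr10 (-1.15), Uqcrc2 (-0.92), Uqcrh (-0.81). With a pseudocount of 5, the sign turned for Cox6b2 (0.00).

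Leaving out each of the 7 libraries in turn gave counts and medians of 1 to 9 for members higher, 4 to 12 for members lower, 0 to 4 for complex I higher, 2 to 7 for complex I lower, 0 to 2 for complex III higher, 0 to 1 for complex III lower, 0 to 1 for complex IV higher, 1 to 2 for complex IV lower, 1 to 2 for complex V higher, 0 to 1 for complex V lower. The log2 difference of members whose sign turned in at least 1 of these fits ran over -0.01 to 0.07 for Atp5a1, -0.00 to 0.16 for Atp5d, -0.06 to 0.55 for Atp5g2, -0.60 to 0.20 for Cox5b-ps, -0.32 to 0.17 for Cox6b2, -0.12 to 0.01 for Cox7b, -0.05 to 0.11 for Cox7c, -0.03 to 0.06 for Ndufb10, -0.03 to 0.04 for Ndufb5, -0.03 to 0.09 for Ndufs7, -0.11 to 0.00 for Sdhb, -0.01 to 0.07 for Uqcr10, -0.05 to 0.01 for Uqcrfs1.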
